A study of Mus musculus with 2 samples.

Results

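Alternative splicing of 6 genes of the cell cycle and of genome maintenance was described in mouse embryonic fibroblasts that lack SRSF10, an SR-type splicing factor, beside wild-type fibroblasts. The genes were Trp53 (written p53 in the deposited table), Cdk11b, Ect2, Usp1, Pcna and Samhd1. All rows of these genes were taken by gene identifier whatever their values, which gave 7 of the 100 rows of the table and 6 of its 96 genes. The SRSF10-deficient cells (KO) and the wild-type cells (WT) are embryonic fibroblasts from embryonic tissue, and each genotype was sequenced as 1 poly(A)-selected paired-end library. The sources used here do not say how SRSF10 was removed or how many embryos or cell lines stand behind a library. With 1 library per genotype, every test below compares these libraries and not the genotypes.

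These genes act in different parts of the cell cycle and of genome maintenance. Trp53 encodes p53, a transcription factor that halts the cell cycle or starts cell death after DNA damage, and Cdk11b encodes a cyclin-dependent kinase with roles in transcription, pre-mRNA splicing and mitosis. Ect2 encodes a guanine nucleotide exchange factor that activates RhoA at the cleavage furrow and is needed for cytokinesis. Pcna encodes the sliding clamp that holds DNA polymerases on the template, and Usp1 encodes a deubiquitinase that removes ubiquitin from PCNA and from FANCD2, a protein of the Fanconi anaemia pathway. Samhd1 encodes a triphosphohydrolase that breaks down deoxynucleotides and so limits their supply. Alternative splicing can change such a protein, move its start or stop codon, or make a transcript that is degraded by nonsense-mediated decay.

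The 7 rows comprised 6 cassette exons in 5 genes and an alternative 5′ splice site in Pcna. The 412-nucleotide (nt) exon of Trp53 (mm9 chr11:69394556-69394967, plus strand) lies in intron 1, which spans 6375 nt both in the table and in the GENCODE M21 annotation of the GRCm38 build, and 538 nt separate it from the upstream exon. No annotated Trp53 transcript includes it, while 5 transcripts, 4 of them protein-coding, join the flanking exons directly. The 155-nt exon of Cdk11b (mm9 chr4:154999294-154999448, plus strand) also sits before the start codon. Its inclusion is annotated in 2 noncoding transcripts, and 2 protein-coding ones skip it. The 2 Usp1 rows (mm9 chr4:98593146-98593365 and chr4:98593127-98593365, plus strand) are versions of exon 2 of 9 that share their end, with 220 and 239 nt. That exon holds the start codon of the principal transcripts.

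**Figure D1:**
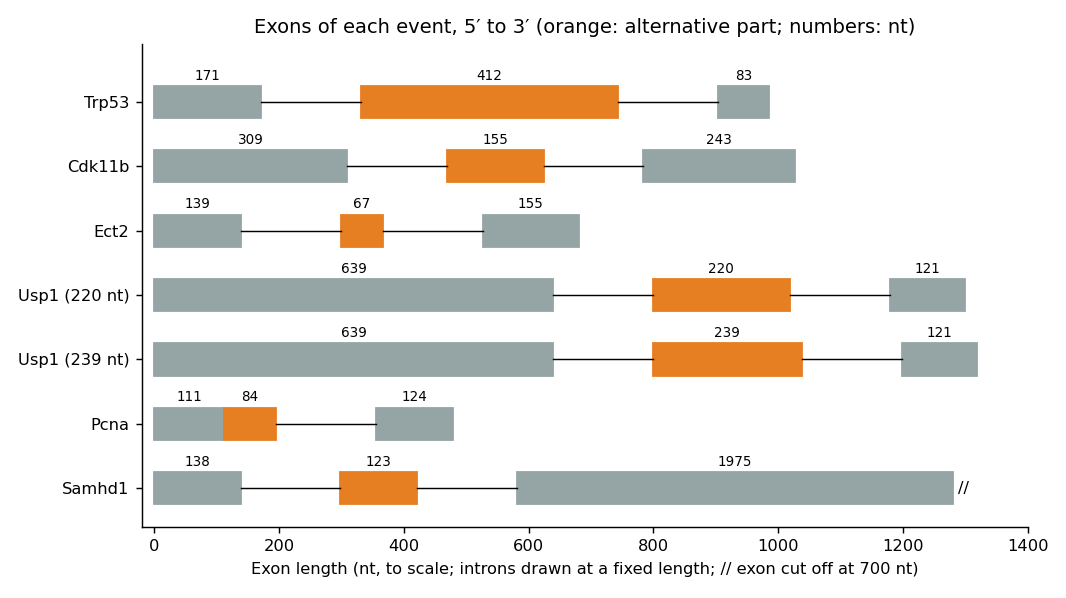
Exon structure of each event drawn from 5′ to 3′, with the exon length in nt on the horizontal axis and the alternative part in orange. The alternative part ranges from 67 nt in Ect2 to 412 nt in Trp53, and in Pcna it directly extends the upstream exon of 111 nt.

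The other events lie further into the coding sequence. The 67-nt exon of Ect2 (mm9 chr3:27014988-27015054, minus strand) falls between exons 21 and 22 of the 25 exons of the principal transcript, which skips it. The only annotated transcript that includes it is classed as a target of nonsense-mediated decay. In Pcna the long form of exon 4 of 6 has 195 nt, and the short form ends 84 nt earlier (alternative part mm9 chr2:132076980-132077063, minus strand). Only the long form is annotated. The 123-nt exon of Samhd1 (mm9 chr2:156927057-156927179, minus strand) follows exon 15 of the principal transcript, which has 16 exons and skips it. Of the 6 cassette rows, 1 had a length divisible by 3, the Samhd1 exon, against 35 of the 69 cassette exons of the table (50.7%), and the Pcna extension was divisible by 3 as well.

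The sequences below show where each choice touches a start codon, a stop codon or a splice site. They were read from GENCODE M21 transcripts on the GRCm38 build by matching exon and intron lengths, without converting coordinates, and all are written in the direction of the gene. The junction used when Trp53 skips its 412-nt exon (GRCm38 chromosome 11, plus strand) is shown with the last 15 nt of exon 1 in lower case and the first 15 nt of exon 2 in capitals, which open with the annotated start codon. The sequence of the 412-nt exon was not used here. The Cdk11b sequences show the edges of its 155-nt exon with exon bases in capitals (GRCm38 chr4:155625170-155625194 and chr4:155625330-155625349, plus strand), which are flanked by the AG and GT of ordinary introns.
Trp53 exclusion junction: ttctccgaagactggATGACTGCCATGGAG
Cdk11b 3′ splice site: ttacctgtcacccagGCCTCCCCGC
Cdk11b 5′ splice site: AAACACTGAGgtaaactaag

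For Usp1, the coding stretch of exon 2 (GRCm38 chr4:98926505-98926674, plus strand) is shown because skipping removes all 170 nt of it, with the start codon in capitals. The start of the 239-nt version (GRCm38 chr4:98926436-98926460, plus strand) is shown with its 19 extra nt, which end in AG, given in capitals, and with the first 6 nt of the 220-nt version. Without exon 2, an ATG 8 nt before the end of exon 1 stays in frame with exon 3, and this ATG is the annotated start of the transcript that skips the exon. That frame has 730 codons, against 784 codons with exon 2, and 2 other ATGs precede it.
Usp1 exon 2, coding part: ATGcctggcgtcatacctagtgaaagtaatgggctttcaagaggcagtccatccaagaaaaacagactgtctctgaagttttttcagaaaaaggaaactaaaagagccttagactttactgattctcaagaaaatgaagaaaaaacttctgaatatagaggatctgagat
Usp1, start of the 239-nt version: atttaattggtgattacAGcttcct

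For Ect2, the 67-nt exon (GRCm38 chr3:27116066-27116132, minus strand) and the part of the next exon read after it (GRCm38 chr3:27115406-27115550, minus strand) are shown because inclusion shifts the frame. The shifted frame meets a stop codon, in capitals, 142 nt into that next exon. Read from the annotated start, the frame has 818 codons with the exon, against 913 codons without it, and 3 exon junctions follow the new stop codon.
Ect2 67-nt exon: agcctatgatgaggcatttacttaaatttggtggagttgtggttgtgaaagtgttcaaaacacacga
Ect2 next exon to the stop: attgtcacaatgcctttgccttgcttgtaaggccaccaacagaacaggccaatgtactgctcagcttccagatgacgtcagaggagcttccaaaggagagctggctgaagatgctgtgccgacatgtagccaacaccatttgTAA

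For Pcna, the last 9 nt of the short form are followed by the 84-nt extension (GRCm38 chr2:132251244-132251336, minus strand), whose opening GT, in capitals, is the splice site of the short form. Removing the extension leaves the frame open and takes out 28 of 261 codons, from codon 167 on. In Samhd1 the choice sets the C-terminal end of the protein. The coding part of the 123-nt exon (GRCm38 chr2:157101360-157101443, minus strand) and that of the last exon, which is read when the 123-nt exon is skipped (GRCm38 chr2:157099399-157099503, minus strand), are shown. Both end in a stop codon, in capitals. After 624 shared codons the protein gains 27 codons with the exon and 34 codons without it.
Pcna exon 4, end of the short form and extension: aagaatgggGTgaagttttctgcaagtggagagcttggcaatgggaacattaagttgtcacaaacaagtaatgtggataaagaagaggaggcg
Samhd1 123-nt exon, coding part: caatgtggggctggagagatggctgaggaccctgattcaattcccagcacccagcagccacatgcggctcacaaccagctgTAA
Samhd1 last exon, coding part: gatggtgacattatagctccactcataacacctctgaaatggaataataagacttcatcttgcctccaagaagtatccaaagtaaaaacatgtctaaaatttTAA

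Some of these sequences are not unique among annotated transcripts. All 60 windows of 25 nt in the Pcna extension also occur in the processed pseudogenes Pcna-ps2 or Gm29809, and the 30-nt window across the boundary of short form and extension occurs in Pcna-ps2. The 30-nt windows across the long-form and the short-form splice junction occur in no other annotated gene. In the Samhd1 exon, 9 of 99 such windows (9.09%) occur in transcripts of 19 other genes. None of the windows of the Usp1, Cdk11b and Ect2 exons did. Trp53 has a processed pseudogene too, and its cassette exon was not searched. The sources used here do not say how reads with several matches were treated, so the Pcna and Samhd1 read counts are uncertain to that extent, and the part of shared reads in the results was not tested.

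The comparison asked how each of these splicing choices differed between SRSF10-deficient and wild-type fibroblasts. Inclusion was lower in the KO library in Trp53, Cdk11b, Ect2 and Samhd1, and higher in Usp1 and Pcna. The size of the difference in deposited inclusion ran from 30 percentage points in Samhd1 and Ect2 to 66 points in Usp1, with a median of 36 points over the 7 rows and 33.5 points over all 100. The authors had listed only rows that differ by 20 points or more, so a difference as such was a condition of being in the table.

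**Figure D2:**
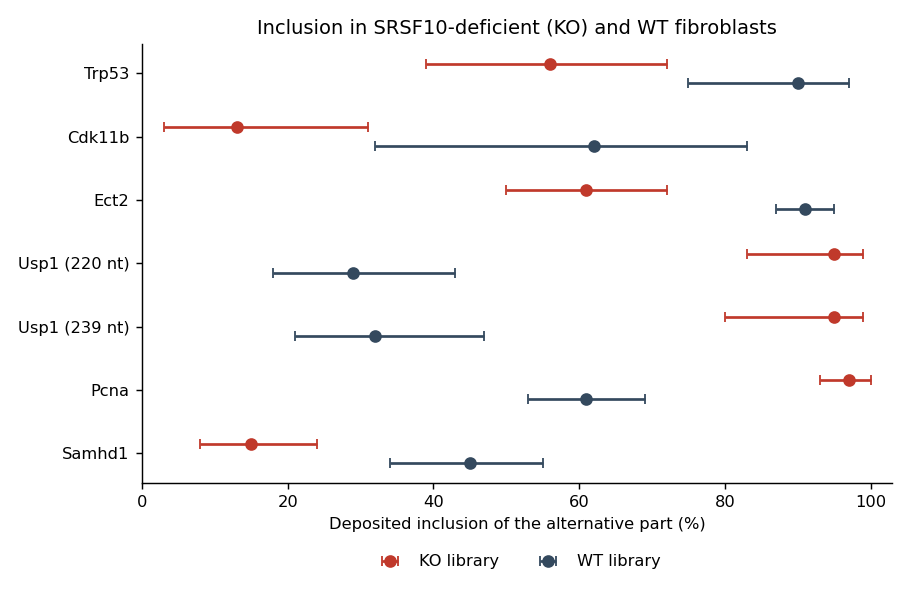
Deposited inclusion of the alternative part in percent (markers) with the authors' interval (bars) for each row, the KO library in red above the WT library in blue. The intervals of both libraries lie apart in all 7 rows, by as little as 1 point in Cdk11b and by as much as 40 points in the 220-nt exon of Usp1.

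Each inclusion value is the authors' posterior mean, given with their interval, whose level the sources used here do not state. Besides these estimates, the table counts reads in 4 classes, those specific to the inclusion isoform, those specific to the exclusion isoform, those that fit both and those that fit neither. Inclusion-only and exclusion-only reads were compared between the libraries with a two-sided Fisher's exact test, adjusted by Benjamini-Hochberg over all 100 rows. A row was called at an adjusted p under 0.05 with a difference of at least 10 points in the same direction in both measures. All 7 rows were called, 3 higher and 4 lower in the KO library, in a table where 86.0% of rows were called, 49.0% higher and 37.0% lower. The authors' intervals did not overlap in 7 of 7 rows, against 83.0% of all rows, and the authors' Bayes factor was at least 20 in 7 of 7 rows, against 74.0% of all rows. None of these counts sets these genes apart from the rest of the table.

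In Trp53, inclusion of the 412-nt exon was 56% (39% to 72%) in the KO library, against 90% (75% to 97%) in the WT library. The authors' estimate thus put the exon in the larger part of transcripts in the WT library, although no annotated transcript includes it. Reads that fit neither isoform made up 61.1% of the KO and 46.3% of the WT reads over this event. The KO interval reached to either side of an even split, so neither form clearly led there. The inclusion-only and exclusion-only reads were 20 and 10 in the KO library, against 41 and 2 in the WT library (Fisher's exact test, adjusted p = 0.00498). Skipping reads were thus few in either library, and the share of inclusion-only reads was 66.7% in the KO library (exact Clopper-Pearson 95% interval 47.2% to 82.7%), against 95.3% in the WT library (84.2% to 99.4%), without overlap. Another 102 KO and 147 WT reads fit both isoforms. The authors' own assignment gave 78 reads to inclusion and 54 to exclusion in the KO library, against 181 and 9 in the WT library. With a Bonferroni adjustment Trp53 was no longer called (Fisher's exact test, adjusted p = 0.244), and its Bayes factor of 23.7, the authors' measure of the weight for a difference, was below the table's median of 44.7. The exon was longer than all but 1 of the 69 cassette exons, whose median length was 105 nt.

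In Cdk11b, inclusion of the 155-nt exon was 13% (3% to 31%) in the KO library, against 62% (32% to 83%) in the WT library. Only 1 inclusion-only read stood against 10 exclusion-only reads in the KO library, while the WT library had 9 and 3 (Fisher's exact test, adjusted p = 0.00541). The order of both classes was therefore opposite in the libraries, on the smallest numbers of the 7 rows. The share of inclusion-only reads was 9.09% (exact 95% interval 0.230% to 41.3%) in the KO and 75.0% (42.8% to 94.5%) in the WT library. Reads that fit neither isoform made up 87.0% of the 108 KO reads and 85.3% of the 102 WT reads over this event, against medians of 49.4% and 47.0% over all rows. Cdk11b was not called with inclusion-only reads divided by 2, which allows for the 2 junctions of an included exon (Fisher's exact test, adjusted p = 0.0551), nor with a Bonferroni adjustment (adjusted p = 0.276). The minus-strand gene Gm10563 overlaps the Cdk11b locus, but 0 of its annotated exons lie within the event, and the same holds for Gm25152, a plus-strand snoRNA gene within the Ect2 locus.

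In Ect2, inclusion of the 67-nt exon was 61% (50% to 72%) in the KO library, against 91% (87% to 95%) in the WT library. The inclusion-only reads numbered 68 in the KO and 195 in the WT library, and the exclusion-only reads 18 and 11 (Fisher's exact test, adjusted p = 0.000682). Most reads fit both isoforms, 980 in the KO and 1019 in the WT library, so the libraries were close in those reads and far apart in the reads of the exon. The authors assigned 692 reads to inclusion and 374 to exclusion in the KO library, against 1110 and 115 in the WT library. As a share of inclusion-only among exclusive reads the difference was smaller, -15.6 points, with 79.1% (exact 95% interval 69.0% to 87.1%) in the KO and 94.7% (90.6% to 97.3%) in the WT library. That share is not corrected for exon length and is on another scale than the deposited inclusion. Although the authors' KO interval began at 50%, the inclusion isoform was estimated as the main isoform in both libraries. Its 1 annotated transcript is classed for nonsense-mediated decay, as is 1 of the 4 annotated transcripts that skip the exon, the other 3 being protein-coding.

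**Figure D3:**
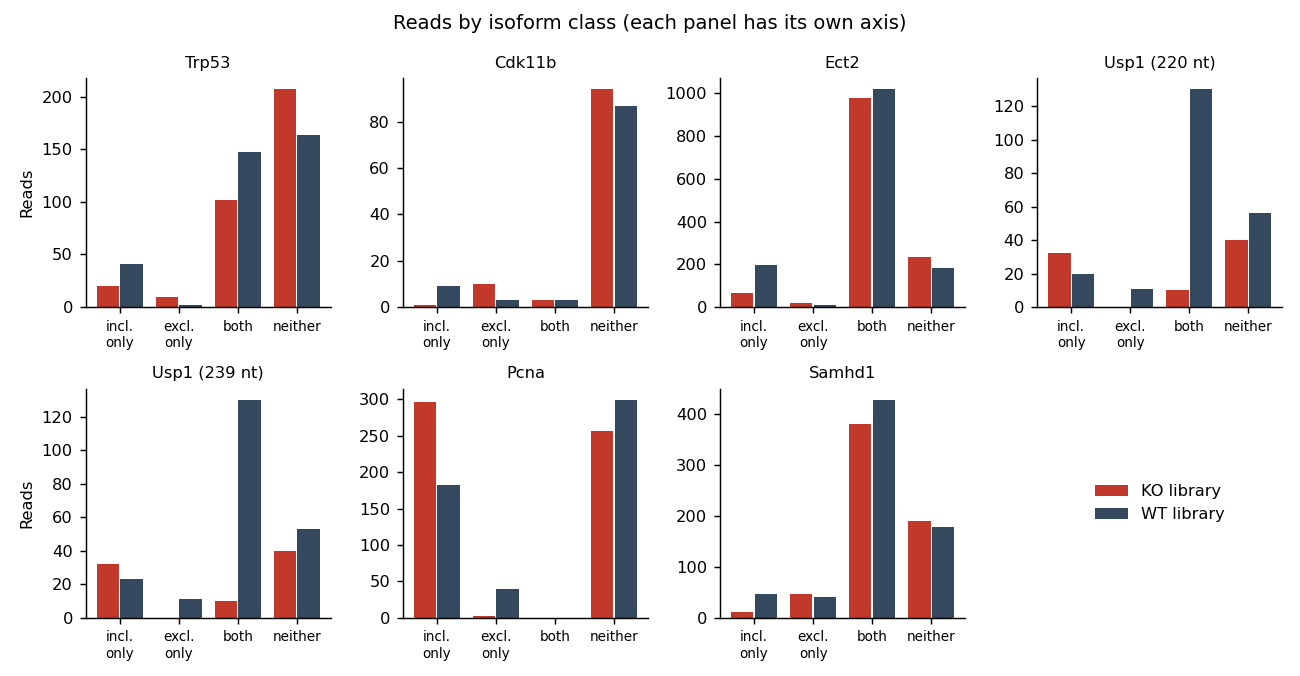
Number of reads over each event (vertical axis, own scale per panel) by isoform class, KO library in red left of the WT library in blue. In Usp1 the reads that fit both isoforms number 10 in the KO library and 130 in the WT library, whereas in Ect2 they number 980 and 1019.

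In Usp1, inclusion of exon 2 was 95% in the KO library for either version, with intervals of 83% to 99% for 220 nt and 80% to 99% for 239 nt. In the WT library it was 29% (18% to 43%) and 32% (21% to 47%). No exclusion-only read was found beside 32 inclusion-only reads in the KO library, a depth that still permits exclusion in up to 9.38% of such reads. The WT library had 11 exclusion-only reads in each row, beside 20 inclusion-only reads for the 220-nt and 23 for the 239-nt version (Fisher's exact test, adjusted p = 0.000682 and 0.00143). Both rows rest largely on the same reads and count as 1 observation. The inclusion-only reads were more numerous in the WT library's 31 and 34 exclusive reads than the exclusion-only reads, while the deposited inclusion there was under 50%. The difference was 35.5 and 32.4 points in the share of exclusive reads, against 66 and 63 points in deposited inclusion, a wider gap between both measures than in the other 5 genes.

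Usp1 also differed in reads that fit both isoforms, with 10 in the KO and 130 in the WT library. Their ratio was the eighth lowest of the 86 rows with such reads. The authors' assignment for the 220-nt version gave 39 reads to inclusion and 3 to exclusion in the KO library, against 60 and 101 in the WT library. In the WT library the assignment thus shared out many reads that do not decide between the isoforms on their own.

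In Pcna, use of the long form of exon 4 was 97% (93% to 100%) in the KO library, against 61% (53% to 69%) in the WT library. The KO library had 296 reads of the long form only and 2 of the short form only, against 182 and 39 in the WT library (Fisher's exact test, adjusted p = 2.76e-12). Short-form reads were thus nearly absent from the KO library. The share of long-form reads was 99.3% (exact 95% interval 97.6% to 99.9%) in the KO and 82.4% (76.7% to 87.1%) in the WT library, a difference of 17.0 points. No read was counted for both isoforms in either library. As given above, the extension and its boundary with the short form are also found in pseudogenes, and the long-form splice junction is not.

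In Samhd1, inclusion of the 123-nt exon was 15% (8% to 24%) in the KO library, against 45% (34% to 55%) in the WT library. The libraries had a similar number of exclusion-only reads, 47 in the KO and 40 in the WT library, and differed in inclusion-only reads, with 12 and 46 (Fisher's exact test, adjusted p = 0.000387). The share of inclusion-only reads was 20.3% (exact 95% interval 11.0% to 32.8%) in the KO and 53.5% (42.4% to 64.3%) in the WT library. The authors assigned 99 reads to inclusion and 341 to exclusion in the KO library, against 191 and 323 in the WT library. The form with the 34-codon end was the main one in the KO library. In the WT library neither form clearly led, since the authors' interval included 50% and inclusion-only reads slightly outnumbered exclusion-only reads.

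**Figure D4:**
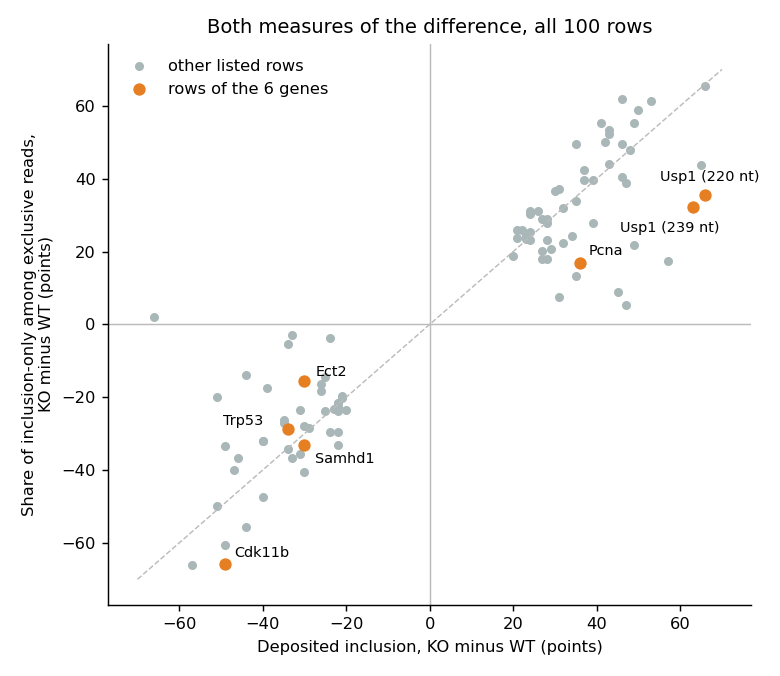
Difference between the libraries, KO minus WT in percentage points, in deposited inclusion (horizontal) and in the share of inclusion-only among exclusive reads (vertical) for all 100 rows, the 7 rows of the 6 genes in orange. The dashed line marks equal values. Usp1, Pcna and Ect2 lie nearer to 0 on the vertical than on the horizontal axis, and Cdk11b lies farther from 0 (-65.9 against -49 points).

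Trp53 and Samhd1 gave differences of -28.7 and -33.1 points in the share of exclusive reads, close to -34 and -30 points in deposited inclusion. All 7 rows kept their direction between both measures, and of all 100 rows, 1 did not. The median absolute difference in that share was 32.4 points over the 7 rows and 28.6 points over all 100.

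The rule that chose the genes did not use the number of reads over an event. That number is not independent of the listed differences, since it contains the inclusion-only and exclusion-only reads. Ratios were divided by the median KO over WT ratio of the table's genes (0.937). Usp1 had 0.403 times as many reads in the KO as in the WT library (exact 95% interval 0.309 to 0.522), on 82 and 217 reads. Pcna had 1.14 times as many (1.01 to 1.29), on 555 and 520 reads. These intervals treat the divisor as exact. Without the division, Usp1 stood at 0.378 and Pcna at 1.07, with no interval computed, so the Pcna difference depends on the scale. The scaled ratio was 1.13 (0.854 to 1.50) in Cdk11b, 1.02 (0.878 to 1.19) in Trp53, 0.987 (0.915 to 1.07) in Ect2 and 0.971 (0.871 to 1.08) in Samhd1. Those 4 intervals included 1, so a difference in all reads over the event was not detectable in these genes. All reads include those that fit neither isoform, whose part differed between the libraries. It was 61.1% in the KO and 46.3% in the WT library in Trp53, and 48.8% and 25.8% in the 220-nt row of Usp1. In Pcna it was lower in the KO library, at 46.3% against 57.5%. What this part did to the ratios was not tested. Over all rows, 24.0% had an interval wholly below 1 and 22.0% wholly above it, so neither Usp1 nor Pcna was unusual in its direction, though Usp1 was the third lowest of the table's genes. Ratios of reads that fit both isoforms were divided by their own median over genes, which was 1 and not 0.937. On that scale the interval was wholly below 1 in Usp1, at 0.0769 (0.0360 to 0.146), and in Trp53, at 0.694 (0.534 to 0.899). Such intervals were not counted over all rows. Acly, Raly and Pkm, for example, also lay wholly below 1, and Lpin1 and Celf2 wholly above it. The quartiles of this ratio over the table were 0.610 and 1.33, a range that holds Trp53 but not Usp1. All these counts are reads over a few exons and not transcript levels. In RNA from whole cultures, fewer cells with a transcript and less of it per cell cannot be told apart.

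**Figure D5:**
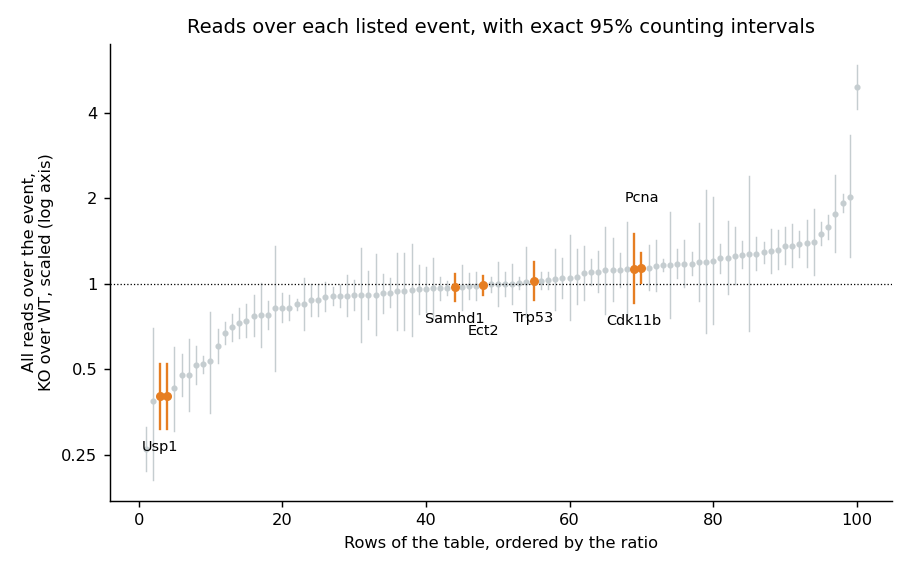
Ratio of all reads over an event, KO over WT library, scaled by the median over genes (log axis), for the 100 rows in rising order, with exact 95% counting intervals as lines. Usp1 lies at 0.403 for both its rows, and the other 5 genes lie between 0.971 and 1.14.

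Other genes of these pathways were looked up only through lists, which are not complete. Smc5, Rint1, Dmtf1 and Dyrk1b, for example, are in the table but in none of the lists, and are not described here. Of 227 further genes in 5 lists, 2 were present. From 51 cyclins, cyclin-dependent kinases, their inhibitors, and retinoblastoma and E2F family genes, only E2f6, a transcriptional repressor of the E2F family, was listed. Its cassette exon had 48% inclusion (23% to 80%) in the KO library, against 95% (84% to 100%) in the WT library, and it was called lower. Reads for inclusion made up 6 of 10 exclusive reads in the KO and 29 of 29 in the WT library (by Fisher's exact test, adjusted p = 0.00511). From 64 DNA repair genes only Emsy, the gene of a BRCA2-binding protein, was listed. Its alternative 3′ splice site stood at 91% (75% to 99%) in the KO library, against 60% (45% to 75%) in the WT library, and was not called. Its exclusive reads for inclusion were 55 of 55 in the KO and 50 of 54 in the WT library (by Fisher's exact test, adjusted p = 0.0632). No gene of the lists for the p53 pathway (21 genes), mitosis and cytokinesis (42 genes) or replication and nucleotide supply (49 genes) was in the table. As the table holds only events that the authors selected, a gene missing from it was not shown to be spliced alike in both libraries.

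Reads over all rows totalled 52735 in the KO and 56927 in the WT library. The exclusive reads of the 7 rows ranged from 11 to 298 in the KO and from 12 to 221 in the WT library, beside medians of 38 and 42 over all rows. None of 11 fibroblast markers, 7 adipocyte markers or Srsf10 itself was in the table, so neither the cell type nor the genotype could be checked in these data. Intervals from reads cover counting error only, since reads of amplified libraries are not independent molecules.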

How the data were processed

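Poly(A) RNA of 1 KO and 1 WT library was sequenced from paired ends, per the labels' protocols. The submitters' processing notes name TopHat and mm9. The program that estimated inclusion, its settings and its annotation were not stated there or in the labels. The deposited inclusion values and their bounds are a fraction per the file headers and were multiplied into percent. The deposited difference, a score that runs WT minus KO, was recomputed as KO minus WT. The Bayes factor is a ratio deposited by the authors and reaches a ceiling in 11 rows. Read counts by isoform class were used as deposited by the authors. The columns of sample 1 and sample 2 were taken as WT and KO from the labels' descriptions. In 9 cells of assigned reads a spreadsheet had made times of day, and these were not used. Tests and exact Clopper-Pearson intervals used SciPy 1.17.1. The test was also run on simulated independent reads. These had no selection of rows and no variation between libraries, so they cannot check the test under the conditions of these data. A share of 0 is given with the limit that 3 counts allow. Symbols, exons and sequences came from GENCODE M21, whose names matched the identifiers of all 96 genes. Each row of the 6 genes and each listed event of the 5 gene lists is named. Members and lists were chosen with earlier results of these data known. Alternatives tried were another divisor of inclusion reads, test, adjustment, read minimum, measure or scale. The library kit is not stated to keep strand.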

Additional observations from a re-analysis of the deposited data

How the results depend on the processing

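Of the 8 alternatives for inclusion, 6 could be run on all 7 rows. Most of them changed only the p-value, the criterion or the rows tested, so they could not test the direction of a difference. The 7 rows were also called with Boschloo's exact test, with a minimum of 10 points in the share of inclusion-only reads, by non-overlapping authors' intervals and by a Bayes factor of at least 20. Of all 100 rows, 89, 86, 83 and 74 passed these, in that order. With inclusion-only reads divided by 2, Cdk11b was not called (Fisher's exact test, adjusted p = 0.0551), and 67 of all 100 rows were called. With a Bonferroni adjustment, Cdk11b and Trp53 were not called (Fisher's exact test, adjusted p = 0.276 and 0.244), and the calls over the table fell to 28, against 86. Under a minimum of 20 exclusive reads per library Cdk11b could not be tested. The other 6 rows were called, as were 63 of all 68 rows that met the minimum. Counting each gene once left out the 220-nt row of Usp1, and all 6 genes were called, in a table where 83 of 96 genes were. In reads of both isoforms only, the ratio was 0.0769 for both Usp1 rows and 0.694 for Trp53, and Pcna had no such reads. The cause of these shifts was not tested. No paired analysis was possible because each genotype has 1 library, and no replicate could be left out. At 11 and 12 exclusive reads, depth limits Cdk11b most.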
